A study of Homo sapiens with 4 samples.

Results

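The 9 genes described here encode the enzymes that make serine and that carry its carbon into the folate pool: PHGDH, PSAT1, PSPH, SHMT1, SHMT2, MTHFD1, MTHFD2, MTHFD1L and ALDH1L2. They were taken by name from the table of gene values, all 9 have a row there, and all 9 were among the 14424 genes tested out of 15279 named rows. Their RNA was measured by RNA-seq in MDA-MB-231 (MDAMB231, MDA231-P), a human triple-negative breast cancer line called parental here, and in MDA-MB-231Br (MDAMB231Br, MDA231-BR), its derivative from brain metastasis, called brain metastatic here. Both lines were grown in DMEM with 10% fetal bovine serum and PS, with no treatment named, so serine was not a variable of the design. Each line is a single established line with 2 libraries, lettered A and B in column order, and nothing in the labels ties the libraries of a line to separate cultures, so the p-values here reflect library-to-library spread that could be technical in origin.

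PHGDH oxidises the glycolytic intermediate 3-phosphoglycerate, PSAT1 transaminates the product with glutamate as the donor, and PSPH removes the phosphate to give serine. SHMT1 in the cytosol and SHMT2 in mitochondria then move a carbon from serine to tetrahydrofolate, leaving glycine, and the MTHFD enzymes and ALDH1L2 interconvert or oxidise the folate-bound carbon that feeds purine, thymidylate and methionine synthesis. PHGDH is known for its amplification in some breast cancers and for supporting growth where serine is scarce, as in the brain. ATF4, MYC and NF-Y are among the transcription factors associated with genes of this pathway.

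The sequence before the start site was read for the enzymes whose levels differed most or went in opposite directions, since these genes are often described as sharing transcription factors. RefSeq windows on GRCh38.p14 matched 6 of the 9 genes, in 9 windows, 4 of them for MTHFD1L. PSPH, SHMT2 and ALDH1L2 had no matching entry. The 250 bases before the start are printed 5′ to 3′ on the gene's own strand for PHGDH (chr1:119711684-119711933, plus strand), PSAT1 (chr9:78296875-78297124, plus strand) and SHMT1 (chr17:18363551-18363800, minus strand), with CCAAT boxes (CCAAT or ATTGG) and GC boxes (GGGCGG or CCGCCC) in capitals.
PHGDH: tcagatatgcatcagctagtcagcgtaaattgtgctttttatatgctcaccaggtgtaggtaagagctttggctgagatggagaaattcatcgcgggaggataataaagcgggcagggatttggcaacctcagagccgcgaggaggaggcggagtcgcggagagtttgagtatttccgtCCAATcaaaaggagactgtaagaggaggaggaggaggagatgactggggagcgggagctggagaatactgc
PSAT1: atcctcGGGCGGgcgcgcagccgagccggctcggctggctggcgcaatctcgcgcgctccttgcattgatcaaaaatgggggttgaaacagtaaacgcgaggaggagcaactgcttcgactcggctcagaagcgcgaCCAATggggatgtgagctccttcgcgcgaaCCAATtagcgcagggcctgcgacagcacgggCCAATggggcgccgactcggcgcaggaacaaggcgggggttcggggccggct
SHMT1: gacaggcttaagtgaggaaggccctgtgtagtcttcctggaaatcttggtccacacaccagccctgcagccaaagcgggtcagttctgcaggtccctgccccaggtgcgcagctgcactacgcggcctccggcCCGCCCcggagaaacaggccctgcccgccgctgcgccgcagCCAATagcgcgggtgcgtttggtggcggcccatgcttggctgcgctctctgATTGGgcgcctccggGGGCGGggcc

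The PHGDH stretch holds 1 CCAAT box, which begins 71 bases before the start, and no GC box. PSAT1 holds 3 CCAAT boxes, 113, 83 and 52 bases before the start, and 1 GC box at 244 bases. SHMT1 holds 2 CCAAT boxes, 76 and 25 bases before the start, and 2 GC boxes, 117 and 10 bases before it. The MTHFD1 and MTHFD2 windows hold 2 CCAAT boxes each and no GC box. In MTHFD1L 3 of the 4 windows share 1 CCAAT box and hold 2 or 3 GC boxes. Each matched gene thus holds at least 1 CCAAT box. Among all 35116 windows, which run from 250 bases before to 50 after a start, 34.6% hold a CCAAT box on either strand, 10.8% hold at least 2 and 3.26% hold at least 3, while 45.0% hold a GC box. The C/EBP-ATF response element core (TGATGNAA, either strand, 3.62% of all windows) has no match in the PHGDH, PSAT1, SHMT1, MTHFD1 or MTHFD2 window. The E-box CACGTG (7.26% of all windows) has a match in the MTHFD1 window and in 3 of the 4 MTHFD1L windows. Those 3 windows overlap and share a single E-box. A C/EBP-ATF core was found in MTHFD1L alone among the matched members. The same site lies 129 bases before the start site of window 1, 24 bases after that of window 2 and 90 bases before that of window 3. It is shown in capitals in the 30 bases of chr6:150866346-150866375 on the plus strand.
MTHFD1L: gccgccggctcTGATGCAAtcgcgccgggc

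A match of letters is a description of the window, and the absence of one says only that these letters are not in it. The factors named above were not measured at these windows.

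The libraries held 25835225 to 30771290 reads on named genes, and 1 read was worth 0.0325 to 0.0387 CPM (reads relative to the library total). Values below are normalized read counts, the unit of the table, unless a level per length is named. Brain metastatic B stood apart from the other 3 libraries in interferon-stimulated and endoplasmic reticulum stress genes. The summed level of 15 interferon-stimulated genes was 482 to 571 CPM in those 3 libraries and 3281 CPM in brain metastatic B, and that of 11 endoplasmic reticulum stress genes was 4727 to 5872 CPM against 18534 CPM. Reads on 15 mitochondrial pseudogenes were 0.0425% to 0.0483% of the total in those 3 libraries and 0.170% in brain metastatic B. All 7 markers of the mesenchymal-like breast line were tested, with VIM higher in brain metastatic cells (log2 change 1.56), CAV1 lower (-1.43) and 5 not passing.

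The fibroblast, endothelial and neuron markers that passed, 1 in each list, were all higher in brain metastatic cells, as PHGDH and ALDH1L2 were. Most other markers of these lists had no row: COL1A2, DCN, LUM and PDGFRA for fibroblasts, RBFOX3, SNAP25 and SLC17A7 for neurons and VWF for endothelium. ESR1, the oestrogen receptor gene and a luminal marker, fell below the filter on low values. Of 6 luminal receptor markers 4 were tested and 1, not named here, passed and was higher in brain metastatic cells. Their summed level was 52.2 to 65.3 CPM in the parental and 105 to 112 CPM in the brain metastatic libraries. Of 5 fibroblast markers COL1A1 alone was analysed and it passed (log2 change 2.20, 2.98 to 3.57 CPM in the parental and 12.6 to 17.2 CPM in the brain metastatic libraries). Of 4 endothelial markers 2 were tested and KDR passed (log2 change 3.10), with a summed level of at most 8.53 CPM in the parental and at least 26.6 CPM in the brain metastatic libraries. Of 5 neuron markers 2 were tested and GAD1 passed (log2 change 1.54), with a summed level of 6.27 to 8.27 CPM against 14.8 to 26.0 CPM. The 2 tested astrocyte markers of 6 did not pass, and the other astrocyte markers and all 5 leukocyte markers had no row. The part of these genes in the results below was not tested.

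Of the 9 enzyme genes, 2 were higher in brain metastatic cells, PHGDH and ALDH1L2, and 1 was lower, SHMT1, at an adjusted p below 0.05 in limma-trend on log2(value + 1) with Benjamini-Hochberg adjustment over all tested genes. The other 6 did not pass. Over all tested genes 14.4% passed, 8.61% higher and 5.8% lower. The values of the 2 lines did not overlap for 5 of the 9 genes (PHGDH, PSAT1, PSPH, SHMT1 and ALDH1L2), and for 61.3% of all tested genes. The median log2 change of the 9 was -0.06, against 0.01 for all genes.

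**Figure D1:**
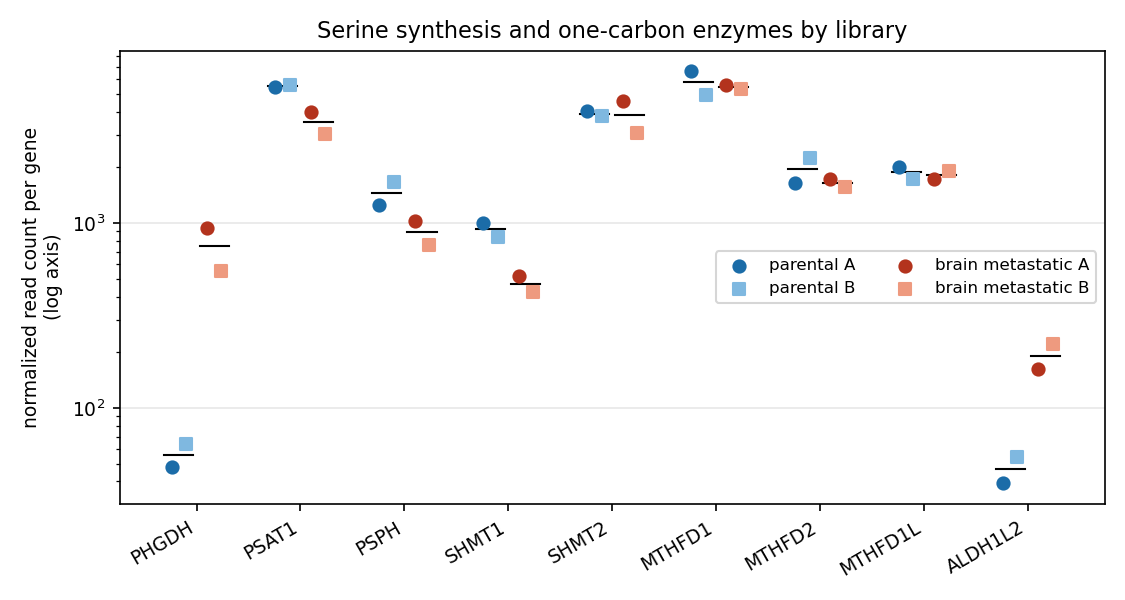
Normalized read count (log axis) of each of the 9 enzyme genes in the 4 libraries, with a bar at the mean of each line. PHGDH and ALDH1L2 are at most 64.0 in the parental libraries and at least 163 in the brain metastatic libraries, whereas the libraries of the lines overlap for SHMT2, MTHFD1, MTHFD2 and MTHFD1L.

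PHGDH, the NAD-dependent dehydrogenase that opens the pathway and commits 3-phosphoglycerate to serine, measured 47.8 and 64.0 in parental A and B, from 56 and 66 reads. It measured 945 and 552 in brain metastatic A and B, from 984 and 521 reads. Both brain metastatic libraries were far above both parental ones, and brain metastatic A was the higher of its pair. The means were 55.9 ± 11.5 (SD, n = 2) and 749 ± 278 (SD, n = 2), 13.4-fold higher in brain metastatic cells. The fitted log2 change was 3.68 ± 0.36 (SE), with a 95% interval of 2.86 to 4.50 and an adjusted p of 0.00083 (limma-trend). In these bulk cultures a larger share of PHGDH-expressing cells and more PHGDH RNA per cell cannot be told apart.

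The rise of PHGDH passed under the main test and all 13 alternatives, with an adjusted p of at most 0.0376. Leaving out brain metastatic B, the library with the interferon and stress signal, gave a log2 change of 4.07, and leaving out brain metastatic A gave 3.30. Among all tested genes 90 had a larger increase.

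PSAT1, the aminotransferase of the middle step, measured 5442 and 5594 in parental A and B, against 3992 and 3045 in brain metastatic A and B. Both brain metastatic libraries were lower and the lines did not overlap, but the change of -0.66 ± 0.23 on the log2 scale (95% interval -1.19 to -0.13) did not pass over all genes (adjusted p = 0.0925, unadjusted p = 0.0207 in limma-trend). PSPH, the phosphatase of the last step, measured 1252 and 1660 in the parental libraries and 1029 and 763 in the brain metastatic libraries. Its log2 change was -0.70 ± 0.27 (95% interval -1.32 to -0.08, adjusted p = 0.117). PSPH has a pseudogene of close sequence, PSPHP1, with 142 and 309 in parental A and B, against 175 and 91.1 in brain metastatic A and B, and how reads were divided between them is not given in the sources used here. PSAT1 and PSPH passed only without brain metastatic A, at -0.86 (adjusted p = 0.0109) and -0.92 (adjusted p = 0.00973).

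The level of PHGDH lay closer to that of PSAT1 in brain metastatic cells. Per kb of transcript, PSAT1 had 135 and 103 times the reads of PHGDH in parental A and B, against 4.99 and 6.52 times in brain metastatic A and B. On the log2 scale the ratio of PHGDH to PSAT1 differed by 4.37 between the lines, 20.7-fold, and by 4.18 to 4.56 with a library left out. This ratio was added after the values were seen and has no test.

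SHMT1, the cytosolic serine hydroxymethyltransferase, measured 1006 and 842 in parental A and B, against 515 and 425 in brain metastatic A and B. The lines did not overlap, and the means were 924 ± 116 (SD, n = 2) and 470 ± 63.5 (SD, n = 2), with a log2 change of -0.98 ± 0.25 (95% interval -1.56 to -0.39, adjusted p = 0.0396). The call of SHMT1 was lost without parental A (adjusted p = 0.271), without parental B (adjusted p = 0.219) and with no low-value filter (adjusted p = 0.0879). SHMT1 overlaps SMCR8 on the opposite strand in GENCODE v29, and the strand setting of the counting is not given in the sources used here. SMCR8 measured 1235, 721, 950 and 1851 in parental A, parental B, brain metastatic A and brain metastatic B and did not pass (log2 change 0.49, adjusted p = 0.407).

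SHMT2, the mitochondrial form and in most proliferating cells the main source of folate-bound carbon, measured 4011 and 3795 in parental A and B, against 4590 and 3065 in brain metastatic A and B. The parental values lay between the brain metastatic ones. The log2 change was -0.06 ± 0.26 with a 95% interval of -0.65 to 0.53 (adjusted p = 0.899), and it turned to 0.23 without brain metastatic B. Per kb of transcript SHMT2 had 3.87 and 4.38 times the reads of SHMT1 in parental A and B, against 8.66 and 7.0 times in brain metastatic A and B. This mitochondrial to cytosolic ratio was 1.89-fold higher in brain metastatic cells, a log2 difference of 0.92, and 0.77 to 1.07 with a library left out, given as a description with no test.

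**Figure D2:**
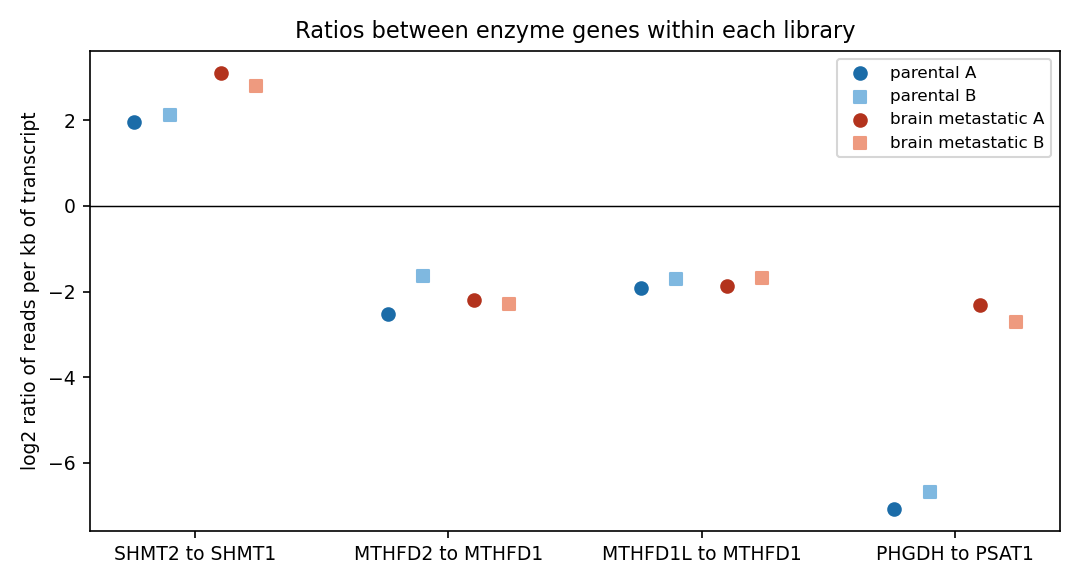
Log2 ratio of reads per kb of transcript between pairs of enzyme genes in each of the 4 libraries. SHMT2 to SHMT1 and PHGDH to PSAT1 are higher in both brain metastatic libraries than in both parental libraries, and the 2 ratios to MTHFD1 overlap between the lines.

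Of the 4 enzymes that act on folate-bound carbon after SHMT, 3 did not pass. MTHFD1, the cytosolic trifunctional enzyme, measured 6614 and 4900 in parental A and B, against 5549 and 5339 in brain metastatic A and B. The brain metastatic values lay within the parental range, and the log2 change was -0.06 ± 0.24 (95% interval -0.61 to 0.48, adjusted p = 0.875). MTHFD1 overlaps ZBTB25 on the opposite strand, and a processed pseudogene row, MTHFD1P1, held 30.7 to 51.9 per library.

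MTHFD2, the mitochondrial dehydrogenase and cyclohydrolase, often high in tumours and in embryonic tissue, measured 1648 and 2251 in parental A and B. It measured 1727 and 1562 in brain metastatic A and B. The lines overlapped, and parental B was the highest library (log2 change -0.23 ± 0.25, 95% interval -0.80 to 0.34, adjusted p = 0.555). MTHFD1L, the mitochondrial formate-releasing synthetase, measured 2021 and 1734 in parental A and B, against 1732 and 1900 in brain metastatic A and B, with a log2 change of -0.05 ± 0.23 (95% interval -0.56 to 0.47, adjusted p = 0.910). The intervals of MTHFD1 and MTHFD1L allow a change of up to 0.61 and 0.56 down and 0.48 and 0.47 up on the log2 scale.

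ALDH1L2, the mitochondrial enzyme that oxidises formyl-tetrahydrofolate and makes NADPH, was higher in brain metastatic cells. It measured 39.2 and 54.3 in parental A and B, from 46 and 56 reads, and 163 and 220 in brain metastatic A and B, from 170 and 208 reads. Both brain metastatic libraries were above both parental ones, with means of 46.8 ± 10.7 (SD, n = 2) and 192 ± 40.4 (SD, n = 2), 4.10-fold higher. The log2 change was 2.01 ± 0.36 (95% interval 1.18 to 2.85, adjusted p = 0.0107). Its call was lost without parental A (adjusted p = 0.103), without parental B (adjusted p = 0.062) and with no low-value filter (adjusted p = 0.0653). C12orf45, which overlaps ALDH1L2 on the opposite strand, measured 244 to 467 over the 4 libraries and did not pass. ALDH1L1, the cytosolic paralog, measured 18.8 and 33.0 in parental A and B, against 49.0 and 32.8 in brain metastatic A and B, and did not pass (log2 change 0.67, adjusted p = 0.380).

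**Figure D3:**
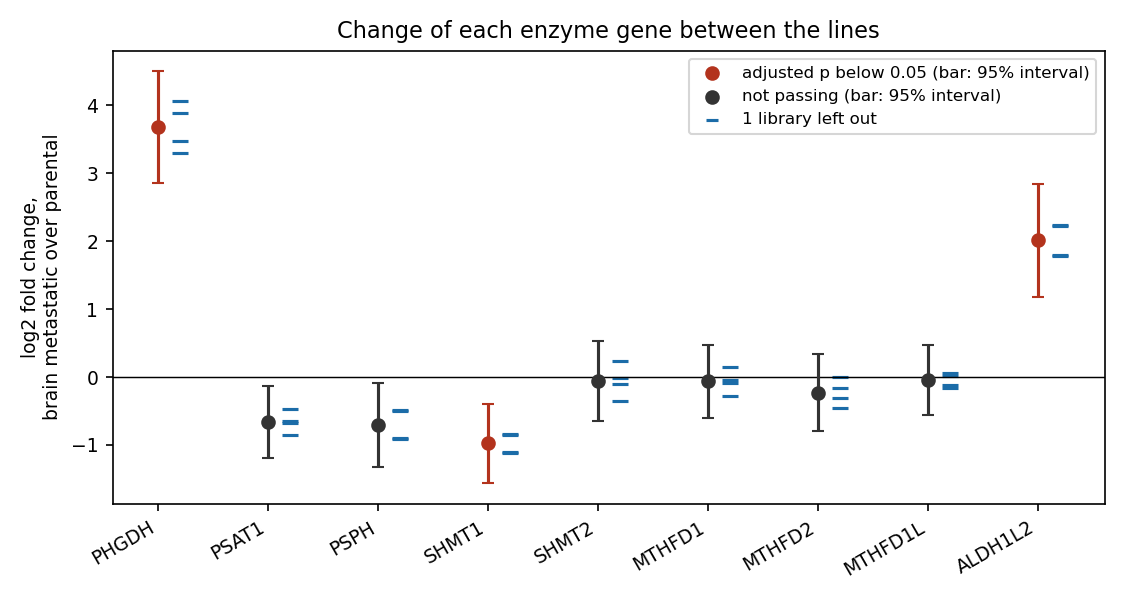
Log2 fold change of each enzyme gene, brain metastatic over parental, on the log2(value + 1) scale, with its 95% interval (bar) and the values with 1 library left out (dashes). PHGDH at 3.68, ALDH1L2 at 2.01 and SHMT1 at -0.98 pass at an adjusted p below 0.05, and the intervals of SHMT2, MTHFD1, MTHFD2 and MTHFD1L include 0.

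The ratios of the mitochondrial MTHFD genes to MTHFD1 overlapped between the lines. MTHFD2 had 0.175 and 0.323 times the reads per kb of MTHFD1 in parental A and B, against 0.219 and 0.206 times in brain metastatic A and B. The log2 difference of -0.17 ran from -0.61 to 0.28 with a library left out. For MTHFD1L to MTHFD1 the ratios were 0.266, 0.308, 0.272 and 0.310 in the same order, a log2 difference of 0.02. The size of these ratios depends on the MTHFD1 transcript used. With its longest transcript, MTHFD2 to MTHFD1 was 0.381 and 0.703 in parental A and B, against 0.476 and 0.447 in brain metastatic A and B. MTHFD1L to MTHFD1 was then 0.578 to 0.673 over the libraries. The log2 differences between the lines do not change with transcript length.

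Levels per length, as CPM per kb of transcript (RPKM, principal APPRIS transcript of GENCODE v29), put the 9 genes in order. In parental cells PSAT1 led with a mean of 95.2 RPKM. MTHFD1 at 69.4 RPKM and SHMT2 at 58.1 RPKM followed and overlapped each other, with single libraries at 80.3 and 58.5 RPKM for MTHFD1 and 60.2 and 56.0 RPKM for SHMT2. PSPH stood at 25.2 RPKM, MTHFD1L at 19.7, MTHFD2 at 16.5 and SHMT1 at 14.2, where MTHFD2 overlapped both MTHFD1L and SHMT1. PHGDH, at 0.815 RPKM, and ALDH1L2, at 0.234 RPKM, closed the order, both apart from the other 7 genes and from each other in both libraries.

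In brain metastatic cells MTHFD1 (63.9 RPKM), PSAT1 (59.2 RPKM) and SHMT2 (55.6 RPKM) overlapped, so that no gene led. MTHFD1L at 18.5 RPKM, PSPH at 15.2 RPKM and MTHFD2 at 13.6 RPKM came next, and PSPH and MTHFD2 overlapped. PHGDH now stood at 10.7 RPKM, with 13.5 and 7.80 RPKM in libraries A and B. That range overlapped MTHFD2 (14.4 and 12.8 RPKM) and PSPH (17.5 and 12.8 RPKM), though within each library PHGDH was below both. The PHGDH range lay just above SHMT1 (7.74 and 6.30 RPKM). ALDH1L2 was the lowest gene at 0.934 RPKM. The place of MTHFD1 depends on the transcript used: with its longest transcript, 6814 bases in place of 3136, its means were 31.9 and 29.4 RPKM, below SHMT2. The other 8 genes have the same principal and longest transcript length.

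The genes around the enzymes were taken from 9 lists with 138 distinct genes, of which 118 were tested. In these, 11 (9.32%) were higher and 11 (9.32%) lower in brain metastatic cells, beside 8.61% and 5.8% of all tested genes, and their median log2 change was 0.11. The counts moved strongly with single libraries. Together 2 passed without parental A, 1 without parental B, 24 without brain metastatic B and 41 without brain metastatic A, and 5 passed with no low-value filter. SERINC2 and NNMT were those that passed without parental A, and SERINC2 alone passed without parental B. In those fits the spread came from the brain metastatic pair alone, so a lost call does not show dependence on a parental library. Without parental A and B the log2 changes were 1.43 and 1.42 for SPTLC2, 1.48 and 1.35 for SLC1A4 and 1.36 and 0.95 for NFYC. With all libraries they were 1.43, 1.42 and 1.16.

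Transport showed 3 of 13 tested genes higher and 1 lower, with a median log2 change of 0.56. SLC1A4, a neutral amino acid exchanger that carries serine, measured 268 and 243 in parental A and B, against 585 and 798 in brain metastatic A and B (log2 change 1.42, adjusted p = 0.0148). SLC1A5, a related exchanger best known for glutamine, measured 3797 and 3310 in the parental and 6746 and 7544 in the brain metastatic libraries (log2 change 1.01, adjusted p = 0.0216). SLC38A2, a sodium-coupled transporter of small neutral amino acids, named after its values were seen, rose by 0.79 (adjusted p = 0.0495) and passed in 5 of 14 settings. SFXN2, a mitochondrial sideroflexin, measured 523 and 453 in the parental and 151 and 251 in the brain metastatic libraries (log2 change -1.32, adjusted p = 0.0329). SFXN1, the sideroflexin known as a mitochondrial serine carrier, had a log2 change of -0.18 (adjusted p = 0.595), which is named here after its values were seen.

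Among enzymes and proteins that use serine, 2 of 13 tested genes were higher and 2 lower, with a median log2 change of 0.11. SPTLC2 and SPTLC3, alternative catalytic subunits of the palmitoyltransferase that joins serine to fatty acids in sphingolipid synthesis, were the higher ones. SPTLC2 measured 3820 and 3797 in parental A and B, against 10290 and 10172 in brain metastatic A and B (log2 change 1.43, adjusted p = 0.00475). SPTLC3 measured 517 and 641 in the parental and 1436 and 1481 in the brain metastatic libraries (log2 change 1.34, adjusted p = 0.0106). SERINC2, a membrane protein of a family named for serine incorporation into lipids, fell from 811 and 938 in parental A and B to 123 and 122 in brain metastatic A and B (log2 change -2.82, adjusted p = 0.000754), and it passed in 14 of 14 settings. SDSL, a serine dehydratase-like enzyme, fell by 1.29 on the log2 scale (adjusted p = 0.0366).

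In the folate cycle list 2 of 14 tested genes changed, both lower, with a median log2 change of -0.13. TYMS, thymidylate synthase, measured 8609 and 7735 in parental A and B, against 5043 and 4158 in brain metastatic A and B (log2 change -0.83, adjusted p = 0.0432), and it overlaps ENOSF1 on the opposite strand. TYMS lost its call without brain metastatic B (adjusted p = 0.0631) and without either parental library. In purine synthesis, which takes up formyl-tetrahydrofolate, 2 of 12 tested genes changed, both lower, with a median of -0.34. IMPDH1, a dehydrogenase of guanine nucleotide synthesis, measured 1451 and 1129 in the parental and 448 and 458 in the brain metastatic libraries (log2 change -1.50, adjusted p = 0.00795). PRPS2, which makes phosphoribosyl pyrophosphate, had a log2 change of -1.11 (adjusted p = 0.0327).

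In the methionine cycle and transsulfuration 1 of 9 tested genes was higher and 3 were lower, with a median of -0.47. MTR, methionine synthase, measured 1850 and 1447 in parental A and B, against 3358 and 4819 in brain metastatic A and B (log2 change 1.30, adjusted p = 0.0174). MTRR, the reductase that keeps MTR active, was lower by the same test (log2 change -0.88, adjusted p = 0.0382) and is named after its values were seen. NNMT, which methylates nicotinamide with S-adenosylmethionine, measured 1081 and 1299 in the parental and 349 and 201 in the brain metastatic libraries (log2 change -2.16, adjusted p = 0.00477). AHCYL1, a relative of adenosylhomocysteinase, had a log2 change of -0.89 (adjusted p = 0.0489). It passed in 9 of 14 settings, and its call was lost in edgeR (adjusted p = 0.0506) and without brain metastatic B (log2 change -0.63, adjusted p = 0.102). In the glycine cleavage list 1 of 5 tested genes was lower, GCSH, the lipoyl carrier protein of the system. Log2 changes in this list ran from -2.02 to 1.75, and DESeq2 also called 1 gene of it higher. GCSH lost its call with a pseudocount of 0.5. It lies below the 5 CPM used for naming and is named after its values were seen (64.8 and 63.1 against 25.9 and 8.48, adjusted p = 0.0496). It has near-identical pseudogenes and is uncertain, and GLDC was not analysed here.

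**Figure D4:**
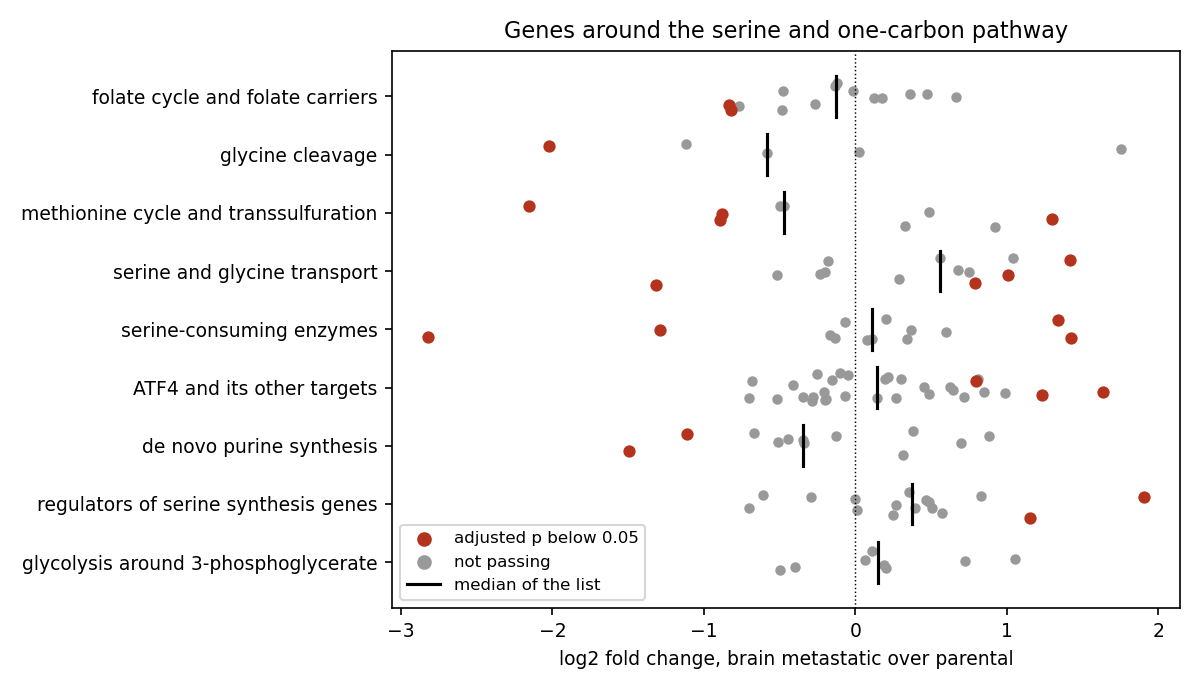
Log2 fold change, brain metastatic over parental, of each tested gene in 9 lists around the enzymes, with a bar at the median of each list and genes at an adjusted p below 0.05 in red. Red genes with an increase lie in the transport, serine-consuming, ATF4, regulator and methionine lists. The red genes of the folate, glycine cleavage and purine lists are all lower, and other genes of these lists rise.

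ATF4, the stress-induced factor known to drive serine synthesis genes, and its other targets had 3 of 31 tested genes changed, all of them higher, with a median log2 change of 0.14. CHAC1, a glutathione-degrading enzyme, measured 47.8 and 49.5 in parental A and B, against 135 and 174 in brain metastatic A and B (log2 change 1.64, adjusted p = 0.0195). VLDLR, a lipoprotein receptor, had a log2 change of 1.23 (adjusted p = 0.0223), and CEBPB, a bZIP transcription factor named after its values were seen, had 0.80 (adjusted p = 0.0498). CEBPB passed in 5 of 14 settings, and its call was lost in edgeR, limma-voom, both other scalings, the pseudocount of 0.5, with no low-value filter and without brain metastatic A or either parental library. ATF4 itself measured 3794 and 4990 in the parental and 6339 and 4315 in the brain metastatic libraries, so that the lines overlapped (log2 change 0.27, adjusted p = 0.531). ASNS, asparagine synthetase and a widely used ATF4 target, had a log2 change of -0.70 (adjusted p = 0.0692). The median log2 difference of this list from the parental mean was 0.05 in brain metastatic A and 0.08 in brain metastatic B, the library with the endoplasmic reticulum stress signal. ATF4 and ASNS are named after their values were seen.

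Among 16 tested regulators of serine synthesis genes 2 changed, both higher, with a median log2 change of 0.37. NFYC, a subunit of the CCAAT-binding factor NF-Y, measured 844 and 637 in parental A and B, against 1630 and 1640 in brain metastatic A and B (log2 change 1.16, adjusted p = 0.0201). Its partners NFYA (log2 change 0.27, adjusted p = 0.442) and NFYB (log2 change -0.61, adjusted p = 0.127) did not pass. MYC had a log2 change of 0.57 (adjusted p = 0.149). The other higher gene was TP73, a p53 relative below 5 CPM (adjusted p = 0.045 in limma-trend), which did not pass in DESeq2. These partners, MYC and TP73 are named after their values were seen. Of the 8 tested glycolysis genes around 3-phosphoglycerate, 0 passed in limma-trend, 0 in edgeR and 1 in DESeq2, and 2 had an unadjusted p below 0.05. The most abundant, ENO1, had a log2 change of 0.20 (adjusted p = 0.588).

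The 5 genes whose profile over the 4 libraries was nearest to that of PHGDH, by Euclidean distance between centred log2 values among 9506 genes of at least 10 CPM, were AMPH, CYFIP2, INHBB, SHISA2 and CXCL1. AMPH, which encodes the endocytic protein amphiphysin, measured 79.3 and 98.0 in parental A and B, against 1199 and 868 in brain metastatic A and B (distance 0.285). CYFIP2, an actin regulator, lay at 0.312, INHBB, an inhibin and activin subunit, at 0.342, SHISA2 at 0.350 and the chemokine gene CXCL1 at 0.410. Their log2 changes ran from 3.50 to 3.80, a closeness to PHGDH that the choice by nearness sets in advance. All 5 passed in the main test, as PHGDH did, which is no separate result. CXCL1 has close copies and is uncertain. With 4 libraries such nearness says little beyond a rise of like size that is larger in brain metastatic A.

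Because PHGDH lies in a region of chromosome 1 that is gained in some breast cancers, the 5 tested genes on either side of it were read, an addition made after the values were seen. Of these 10, 0 passed in limma-trend, edgeR or DESeq2. Over all tested genes 14.4% passed in limma-trend, a share from which 0 of 10 cannot be set apart. In limma-trend 0 of the 10 had an unadjusted p below 0.05. The log2 changes of the 10 ran from -0.45 for WARS2 to 0.74 for NOTCH2. The tested genes nearest to PHGDH in the order of RefSeq gene positions were ZNF697 at 0.05 (adjusted p = 0.911) and NOTCH2 at 0.74 (adjusted p = 0.175). NOTCH2 measured 9586 and 6621 in parental A and B, against 9659 and 18248 in brain metastatic A and B, so brain metastatic B alone was high. NOTCH2, NBPF8 and NBPF26 passed only without brain metastatic A, at 1.20, 1.20 and 1.14, and NBPF genes have near-identical copies. DNA copy number was not measured here.

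**Figure D5:**
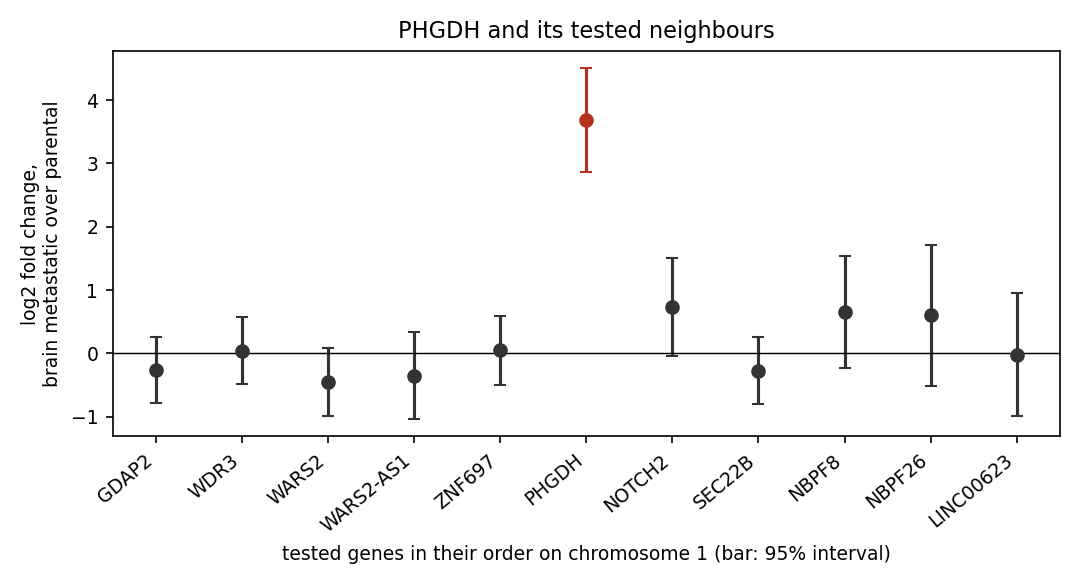
Log2 fold change, brain metastatic over parental, of PHGDH and of the 5 tested genes on either side of it in their order on chromosome 1, with 95% intervals. PHGDH stands at 3.68 and the 10 neighbours between -0.45 and 0.74.

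The same reading around ALDH1L2 on chromosome 12 found 1 of 10 neighbours passing, CHST11, a chondroitin sulfotransferase gene (log2 change 1.06, adjusted p = 0.0234), a call lost without parental A (adjusted p = 0.134) or parental B (adjusted p = 0.205). In edgeR 1 neighbour passed, in DESeq2 2 did, and 2 had an unadjusted p below 0.05 in limma-trend, CHST11 and CKAP4 (log2 change 0.71, adjusted p = 0.0701). Around SHMT1 on chromosome 17, 0 of 10 passed in limma-trend, edgeR or DESeq2, and 0 had an unadjusted p below 0.05 in limma-trend. Neither 1 of 10 nor 0 of 10 can be set apart from the 14.4% of all tested genes that passed in limma-trend.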

How the data were processed

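Gene expression was measured by RNA-seq, with 2 libraries for each of the lines MDA-MB-231 and MDA-MB-231Br and RNA taken with a mirVana kit, per the labels' protocols. HISAT2, featureCounts, DESeq2 and the build GRCh37 are named, without versions or roles, per the submitters' processing notes. Strand setting, annotation and gene filters: not given in the sources used here.

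The deposited values are a signal per gene, reads divided by a size factor. Each column held whole multiples of a single step, and dividing by it gave whole reads for 100% of values (tolerance 0.01 reads). Column headers name only the line, so a column is known by line alone. The 67 unnamed rows of 15346 (0.031% to 0.0369% of reads) were left out, and 20 rows with dates for names were not named. Chi-square per degree of freedom between the libraries of a line was 60.7 and 122, so neither pair is a library deposited in duplicate.

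Low genes were removed with filterByExpr of edgeR, applied to the recovered reads with a minimum count of 10 and a minimum total of 15, and the rest were tested with limma-trend on log2(value + 1), a scale that understates changes of low genes, with Benjamini-Hochberg adjustment over 14424 genes. The edgeR quasi-likelihood test on recovered reads called 2228 genes, against 2079. Intervals are 95% intervals of the fit, and arithmetic folds are ratios of mean normalized values. RPKM used the principal APPRIS transcript of GENCODE v29, a GRCh38 release, matched by symbol. GENCODE v29 also gave the overlapping genes and the pseudogenes, and gene order came from RefSeq gene positions. Promoter windows came from RefSeq on GRCh38.p14, with motifs searched on both strands. CCAAT and GC boxes were added to the search after the windows were seen.

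All 9 enzymes are named. In each pathway list up to 2 passing genes with the largest increase and 2 with the largest decrease at 5 CPM or more are named, or the most abundant gene where none passed, and further names are marked in the text. A gene of the folate cycle list and a gene of the marker lists are not reported here. The members and lists were chosen with earlier results of these data known. Rows or genes that were not found are not analysed here. Alternatives were 3 other tests, 2 scalings, 2 pseudocounts, 2 filters and each library left out. The tests were tried on simulated data. Versions were Python 3.11.15, R 4.3.3, DESeq2 1.42.0, edgeR 4.0.16 and limma 3.58.1.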

Additional observations from a re-analysis of the deposited data

How the results depend on the processing

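With 2 libraries a line, the counts rest on the low-value filter and on single libraries. Among the enzymes, reads were fewest for PHGDH and ALDH1L2 in parental cells, at 46 to 66 per library. With no low-value filter 586 genes passed in all, 1 enzyme (PHGDH) and 5 pathway genes. With 1 library left out, the count ran from 440 to 5390 over all genes, from 1 to 5 over the enzymes and from 1 to 41 over the pathway genes, and the lone library of a line was then assumed to vary like the other line. The other tests (edgeR, DESeq2 and limma-voom), scalings and pseudocounts called 2 enzymes higher and 1 lower, as in the main test. With a mean of at least 5 CPM, ALDH1L2 was not tested and 1 of the other 8 was higher and 1 lower. Directions that turned with a library left out belonged to genes that did not pass in the main test. Several neighbours of ALDH1L2 and SHMT1 turned, among them SLC41A2 (-0.54 to 0.56) and FAM106A (-3.81 to 1.45, with 1 read in brain metastatic A). Among the enzymes the ranges were -0.35 to 0.23 for SHMT2, -0.28 to 0.15 for MTHFD1 and -0.16 to 0.065 for MTHFD1L. Among the neighbours of PHGDH they were -0.13 to 0.22 for WDR3, -0.13 to 0.22 for ZNF697 and -0.26 to 0.22 for LINC00623. For ATF4 the range was -0.012 to 0.54. The cause of these shifts was not tested. No paired analysis was possible because the columns of the table carry no replicate numbers.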
